A study of Mus musculus with 8 samples.

Results

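The Mta2 landscape of the mouse kidney cortex is described here from 149855 peaks, the regions in which chromatin recovered with an antibody against Mta2 exceeded the background in the authors' peak calling. These are all Mta2 peaks on chromosomes 1 to 19 and X, out of 409098 peaks listed for 3 factors (Mta2, Mbd3 and Zbtb7a). The study used chromatin immunoprecipitation with sequencing (ChIP-seq) on kidney cortex of 2-month-old mice, in 4 groups of 2 libraries: the 3 antibodies and Input, the chromatin before precipitation. All groups, Input included, carried the genotype Mta2flx/flx, in which both Mta2 alleles are flanked by recombination sites; the labels name no Cre driver and no other agent, and no group is labelled as lacking Mta2. The tissue was fixed first with a protein crosslinker (disuccinimidyl glutarate) and then with formaldehyde, which holds proteins that reach DNA through partners. A single merged list stands for the 2 Mta2 libraries, so no value has an SD, an n or a test, and everything below describes that list. Spread between the animals was not analysed here, and a place with no listed peak fell short of the authors' threshold, which does not show that Mta2 was absent.

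Mta2 is a core subunit of the nucleosome remodelling and deacetylase complex (NuRD). In that complex a CHD helicase slides nucleosomes, histone deacetylases held by MTA proteins remove acetyl groups, and MBD and GATAD2 subunits join the enzymatic modules. The complex is found at enhancers and promoters of active genes as well as at silenced ones, and it tunes transcription in the nephron progenitors from which podocytes and tubules arise. NuRD is brought to chromatin largely by partner proteins, among them transcription factors, rather than through a DNA motif of its own.

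Sequences are shown first for starts that illustrate how the promoter peaks are distributed. RefSeq (GRCm38.p6, with the same coordinates as the mm10 build of the lists) gives for 21019 starts of protein-coding genes the 250 bases before and the 50 bases after the start. Among kidney-list genes with 1 start in that table, 3 were taken for the highest fold of a Mta2 summit, the base of strongest signal, in the 250 bases before the start. Cubn was added as the gene of highest fold, after Atp6v0a4, among those with at most 5 CG dinucleotides in the whole window, and Nfia and Plce1 as the genes with most summits inside but none within 5 kb of the listed start. These 6 genes were thus chosen by the measured values. The 250 bases before each start follow, 5′ to 3′ on the gene's strand, with every CG dinucleotide in capitals.
Glis1: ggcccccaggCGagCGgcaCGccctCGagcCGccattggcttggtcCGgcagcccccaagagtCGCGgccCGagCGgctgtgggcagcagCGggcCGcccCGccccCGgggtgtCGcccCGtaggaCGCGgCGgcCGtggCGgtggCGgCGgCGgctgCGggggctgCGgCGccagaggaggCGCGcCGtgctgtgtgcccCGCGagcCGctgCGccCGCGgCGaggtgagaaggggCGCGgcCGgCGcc
Foxo3: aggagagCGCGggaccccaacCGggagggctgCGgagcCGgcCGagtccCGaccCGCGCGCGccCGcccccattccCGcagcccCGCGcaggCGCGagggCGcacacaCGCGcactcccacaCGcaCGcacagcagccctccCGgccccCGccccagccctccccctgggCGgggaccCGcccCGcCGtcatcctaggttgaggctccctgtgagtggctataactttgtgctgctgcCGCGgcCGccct
Atp6v0a4: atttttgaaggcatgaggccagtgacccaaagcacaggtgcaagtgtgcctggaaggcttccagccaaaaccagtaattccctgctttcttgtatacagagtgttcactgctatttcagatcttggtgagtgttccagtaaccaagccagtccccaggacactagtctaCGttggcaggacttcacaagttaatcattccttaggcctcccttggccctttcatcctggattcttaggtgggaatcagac
Cubn: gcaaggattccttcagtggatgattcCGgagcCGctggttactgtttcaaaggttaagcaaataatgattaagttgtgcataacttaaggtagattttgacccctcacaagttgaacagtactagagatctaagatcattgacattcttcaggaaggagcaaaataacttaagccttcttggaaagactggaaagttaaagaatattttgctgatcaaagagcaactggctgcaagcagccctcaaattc
Nfia: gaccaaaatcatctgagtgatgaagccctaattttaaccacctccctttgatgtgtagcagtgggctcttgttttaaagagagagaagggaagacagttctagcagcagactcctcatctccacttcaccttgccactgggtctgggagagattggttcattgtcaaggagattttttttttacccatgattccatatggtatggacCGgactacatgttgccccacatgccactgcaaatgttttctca
Plce1: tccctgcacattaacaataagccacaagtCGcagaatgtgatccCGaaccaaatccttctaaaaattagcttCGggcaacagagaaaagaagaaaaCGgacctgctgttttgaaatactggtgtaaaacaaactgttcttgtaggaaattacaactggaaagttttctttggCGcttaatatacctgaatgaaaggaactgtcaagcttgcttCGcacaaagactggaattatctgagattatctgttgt
Glis1, a Krüppel-like zinc finger factor (chr4:107434469-107434718, plus strand), had a summit of fold 49.5 at 211 bases before its start, and the printed bases hold 41 CG dinucleotides. Foxo3, a forkhead factor of stress resistance (chr10:42276696-42276945, minus strand), had a summit of fold 44.4 at 151 bases before the start and 31 CG dinucleotides. Atp6v0a4, a proton pump subunit of intercalated cells (chr6:38124587-38124836, minus strand), had the highest fold of the 6, 52.7 at 105 bases before its start, with 1 CG dinucleotide. Cubn, cubilin, the proximal tubule receptor that takes up filtered protein with megalin (chr2:13491877-13492126, minus strand), had a summit of fold 27.7 at 113 bases, with 2 CG dinucleotides. The listed start of Nfia, a nuclear factor I gene (chr4:97581693-97581942, plus strand), lay 33269 bp from the nearest summit, although 92 summits fell inside the gene, and its printed bases hold 1 CG dinucleotide. The start of Plce1, a podocyte phospholipase mutated in nephrotic syndrome (chr19:38523947-38524196, plus strand), lay 19310 bp from the nearest summit, with 20 summits in the gene and 6 CG dinucleotides. Strong summits thus occurred both at starts dense in CG and at starts that nearly lack it.

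Across all starts, Mta2 summits sat mainly at those rich in CG. Of 21019 starts, 9301 (44.3%) had a summit within the window of 250 bases before to 50 after, at a median fold of 15.6. These windows held a median of 22 CG dinucleotides and 62.0% G and C. The 4847 starts with no summit within 5 kb held a median of 2 CG dinucleotides and 44.7% G and C. The share of starts with a summit rose with each class of CG number, from 7.93% of the 3708 starts with 0 to 2, through 45.6% of the 2105 starts with 10 to 14, to 71.8% of the 4347 starts with 20 to 29. It was 72.1% among the 3281 starts with 30 or more. The median fold of the peak was 8.49 in the first of these classes and 20.4 in the last.

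Short motifs were searched in the same windows on both strands, each as a description of letters and not of a bound site. The GC box GGGCGG, which Sp1-type factors bind, was in 68.7% of windows with a summit, in 9.16% of those with no summit within 5 kb and in 46.6% of all. The GATA letters AGATAA ran the other way, with 5.29%, 18.8% and 9.69%. The E-box CANNTG was in 62.6%, 80.1% and 69.0%, and the TATA letters TATAAA, which were added to the fixed motifs, were in 5.99%, 28.0% and 12.7%. GGGCGG itself holds a CG. Base composition differs between these groups of windows, and its part in the motif shares was not tested. Of the printed windows, taken over their whole length, those of Glis1 and Foxo3 hold GGGCGG and those of Nfia and Plce1 hold AGATAA. Among kidney-list genes with 1 start, 76 of 123 (61.8%) had a summit in the window, against 45.7% of all genes with 1 start, and 4 had none within 5 kb.

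The tissue was checked on defining markers of cortical cells, although a peak is no measure of expression. Of 18 kidney markers, 16 held a Mta2 summit, together 1.74 summits per 10 kb, and the exceptions were the intercalated cell genes Atp6v1b1 and Foxi1, with 2 and 0 when 5 kb were added at both ends. Of 8 markers of liver, neurons, muscle and immune cells, 7 held a summit, together 0.612 per 10 kb, and Rbfox3 alone held 33 of these 43 summits. Of all protein-coding genes 67.5% held a summit, together 0.848 per 10 kb. The Mta2 peaks had a median width of 450 bp and a median fold of 5.21, with the middle 90% of folds between 2.46 and 24.6. Each fold is the authors' ratio of signal over background at the summit. The labels state 100 M paired-end reads per library, and the reads obtained in each were not analysed here.

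Neighbouring Mta2 summits lay close together, and the rest of the genome was left in long gaps. The 149835 gaps between neighbouring summits had a median of 4634 bp and a mean of 17144 bp. Summits placed evenly at random at the same density would have exponential gaps with a median of 11883 bp, a figure given for scale and not as a test. Gaps under 2 kb made up 25.1% of all (11.01% for exponential gaps), and gaps under 5 kb 52.2% (25.3%). The most frequent gap length on a log scale was 2512 to 3162 bp. At the shortest distances the order turned: gaps under 500 bp were 0.366% of all against 2.87% for exponential gaps, and the shortest was 255 bp. The median peak is 450 bp wide, and how far the caller's merging of nearby signal sets this lower edge was not tested.

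**Figure D1:**
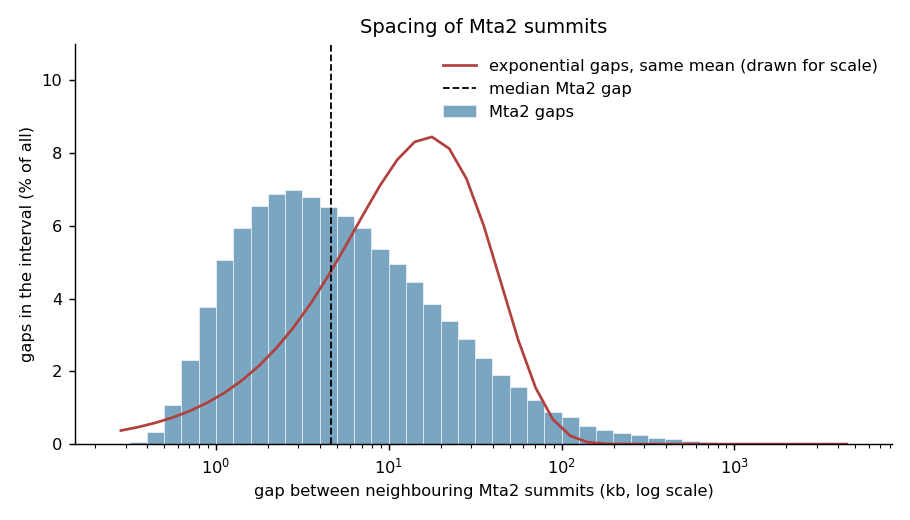
Distances between neighbouring Mta2 summits on autosomes and X, in kb on a log axis, as percent of all gaps per interval (bars), with exponential gaps of the same mean (line) and the median of 4634 bp (dashed). The bars stand above the line from below 1 kb to about 5 kb and again over 100 kb, and below it between 10 and 50 kb.

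Long gaps filled much of the genome, and 41.1% of the span from first to last summit lay in gaps over 100 kb. The same quantities were close to those of Mta2 in the other lists, with median gaps of 4878 bp for Mbd3 and 4873 bp for Zbtb7a. Restricting the list to peaks with a fold of at least 5 lengthened the median Mta2 gap to 8540 bp. The series holds no separate Input group for each factor, and how Input entered peak calling is not given. Library titles repeat the same sample numbers in every group. The lists are therefore set side by side only.

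Joining summits at distances of up to 0.5 × 25 kb left 38033 units. Of all summits, 88.9% fell into 21372 clusters of at least 2, and 16661 stood alone. The 1152 clusters of 20 or more summits held 24.8% of summits in 4.80% of the span. Their median length was 94.9 kb, and they overlapped a median of 2 protein-coding genes. Of these large clusters, 453 overlapped a lone gene and 44 none. Membership depends on the joining distance: 72.2% of summits were in clusters at 5 kb and 94.98% at 25 kb.

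The 4 largest clusters each spanned over 300 kb and 3 or 4 protein-coding genes. The first held 140 Mta2 summits over 419.8 kb (chr8:126566905-126986661) around Irf2bp2, a corepressor, Tomm20, a mitochondrial import receptor, and Rbm34. The second held 139 summits (chr2:165818523-166237697) over Zmynd8, a reader of histone acetylation that associates with NuRD, Ncoa3, a nuclear receptor coactivator, and Sulf2, a heparan sulfatase. The third held 136 summits (chr8:120096659-120551118) over Zdhhc7, 6430548M08Rik, Cibar2 and Gse1. The fourth held 111 (chr2:167538064-167895253) with Snai1 and Cebpb, both transcription factors, and Ube2v1 and Tmem189. In these 4 regions the Mbd3 list had 126, 123, 123 and 105 summits and the Zbtb7a list 121, 127, 133 and 126, so all 3 lists were dense there. Their median Mta2 fold was 5.81 to 7.29, and the strongest peak in each had a fold of 42.0 to 57.4. With peaks of fold at least 5 only, the largest cluster anywhere held 53 summits.

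The fifth cluster was of another kind. It held 107 Mta2 summits within 159 kb (chr6:114493089-114652378), which reach the autophagy gene Atg7, at 6.72 summits per 10 kb against 2.99 to 3.34 in the 4 clusters before it. The Mbd3 list had 39 summits there and the Zbtb7a list 45. The median Mta2 fold was 3.72. It also contained the window of 100 kb with most Mta2 summits on any chromosome, 76 from chr6:114522360-114622359, which overlaps no gene and lies between Hrh1, a histamine receptor, and Atg7. Folds in that window spanned little, from 2.58 at the 10th percentile to 5.17 at the 90th, and 13.2% of its peaks reached a fold of 5. Mbd3 had 23 summits in the window and Zbtb7a 30.

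The next densest window, chr8:123538872-123638871, held 62 Mta2 summits over the cluster of 5S ribosomal RNA genes and no protein-coding gene. No fold there passed 9.58, and Mbd3 and Zbtb7a had 55 and 53 summits. Both windows lack strong peaks, and whether repeated or amplified DNA sets their counts was not tested. The windows ranked next overlapped protein-coding genes and had strong peaks among weak ones. Pik3r1, a regulatory subunit of phosphoinositide 3-kinase, and Rbpms, an RNA-binding protein, had 51 summits each per 100 kb. The shared region of Col4a1 and Col4a2, which encode collagen IV of vascular and mesangial basement membrane, had 49. Windows over Trp53bp2 and Capn2, over Pawr, over the Hoxb genes and over Ppara, the fatty acid receptor of the proximal tubule, had 48 each. The highest fold was 29.2 in the Hoxb window and 43.9 in that of Ppara, where 8 of the 48 summits lay inside the gene.

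Gaps over 1 Mb numbered 89 and made up 128.8 Mb, 5.01% of the span, and 20 of them were on chromosome X. They held 432 protein-coding genes, of which 124 were olfactory receptors, 105 vomeronasal receptors and 84 predicted genes, and 42 gaps held none. The longest was 3.99 Mb on X (chrX:23841136-27834748), with Slx and 14 predicted genes. The next was 2.997 Mb on X (chrX:147443584-150441053), with Lrch2, Luzp4, Ott and 12 predicted genes. Gaps of 2.67 Mb (chr5:59949180-62614757) and 2.61 Mb (chr16:67631474-70239497) held only G6pd2 and Speer2. A gap of 2.58 Mb (chrX:3465900-6046281) held Mycs, Spin2-ps1 and 10 Btbd35f genes. Many of these genes belong to multicopy families expressed in testis, and how far reads map uniquely there was not tested.

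Inside genes, Mta2 summits were denser than between them. Of the 149855 summits, 58.0% lay within a protein-coding gene, and such genes cover 40.1% of the span. This is 84.5 summits per Mb inside against 40.8 outside. The shares inside genes were 58.7% for Mbd3 and 59.4% for Zbtb7a. With non-coding genes added, 66.3% of Mta2 summits were inside a gene. The 62882 summits outside had a median distance of 21363 bp to the nearest gene end, and 25.5% of them were within 5 kb.

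The strongest peaks gathered at starts, but most summits were elsewhere. Strand and starts were available for 17273 of the 21627 protein-coding genes. Summits within 1 kb of a listed start were 8.30% of all, with a median fold of 13.95 and a median width of 1117 bp. Of these, 84.5% had a fold of at least 5. Summits within 1 kb of a 3′ end were 1.80% (median fold 4.90), other summits inside genes 51.7% (4.82) and the remaining summits outside 38.2% (5.09). The latter 3 classes had median widths of 420 to 450 bp.

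Around the start the profile was narrow and lay upstream. In 14512 genes with 1 start, the 100 bp before the start held 259 summits per 1000 genes, the highest value, and the first 100 bp after it held 117. The mean per 100 bp was 80.9 over the 500 bp before the start and 37.3 over the 500 bp after it. Far from the start it was 8.53 upstream and 9.61 downstream. At the 3′ end no such rise was seen, with 9.31 per 1000 genes per 100 bp within 500 bp of the end, 9.16 farther inside and 9.97 farther outside. The 100 bp before the 3′ end held 4.41 per 1000 genes, the lowest value of that profile.

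Beyond the start, summits were more frequent downstream than upstream. In 1309 genes of at least 100 kb with 1 listed start, the interval from 2 to 5 kb had 1.22 summits per 10 kb downstream of the start and 0.718 upstream. From 10 to 20 kb the values were 0.976 and 0.648, and from 50 to 100 kb they met, at 0.735 and 0.730. Along the body the density fell from 5′ to 3′ in all but the longest class of genes. In genes of 20 to 50 kb the first 10% of the gene, which includes the start, held 2.24 summits per 10 kb. The second 10% held 1.27 and the last 10% held 0.82. In genes of 100 to 200 kb these were 1.52, 1.15 and 0.75. Genes of at least 500 kb had 0.41 in the first 10%, 0.24 in the third and 0.37 in the last, so their density rose again toward the 3′ end.

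**Figure D2:**
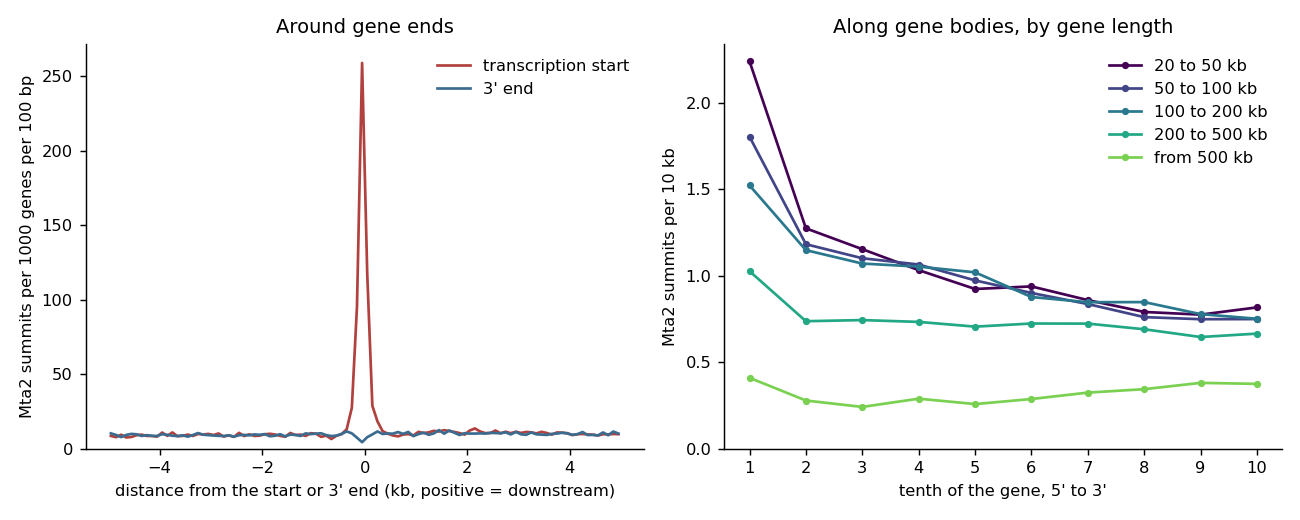
Left, Mta2 summits per 1000 genes per 100 bp by distance in kb from the start or the 3′ end of 14512 genes, with positive distances downstream. Right, summits per 10 kb in 10 equal parts of the gene from 5′ to 3′, by gene length. The start curve peaks at 259 in the 100 bp before the start, while the 3′ end curve has no rise. The body curves fall toward the 3′ end in all but the longest class.

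Mta2 summits followed gene density on the scale of 1 Mb. Among 2541 bins, those without a protein-coding gene (286) had a mean of 10.2 summits, those with 1 to 5 genes 38.9, with 6 to 10 genes 72.9, with 11 to 20 genes 91.9, and those with over 40 genes (48) 108.7. Bins of over 20 genes had 10.1 times as many summits as bins of none, and with bins of 250 kb this ratio was 4.86. Across bins Pearson's r was 0.509 and Spearman's rank correlation 0.646, which is a description, as bins are neighbours. The median fold of peaks in a bin also stood higher in gene-rich bins, at 6.01 in those of over 40 genes and 4.53 in those of none. Some gene-rich bins were nearly empty: 13 bins of over 20 genes had at most 5 summits, and 82.4% of their 403 genes were olfactory or vomeronasal receptors, which sensory neurons of the nose express.

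Chromosomes differed in the same way, with X apart. Autosomes had 61.3 Mta2 summits per Mb, from 49.1 on chromosome 3 to 86.1 on chromosome 11. Chromosome X had 15.9, and Mbd3 and Zbtb7a had 14.2 and 12.45 there. X has 5.77 protein-coding genes per Mb, close to the 5.80 of chromosome 12, which had 51.8 summits per Mb. Over the 19 autosomes, genes per Mb and summits per Mb had a Pearson correlation of 0.793 and a Spearman correlation of 0.860, as a description. The labels used here do not give the sex of the mice, and the Mta2 list also has 143 peaks on chromosome Y. The number of X copies was not tested, and a single X copy in males and fewer summits per copy cannot be told apart.

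Long genes collected the most summits, at a lower density. Of 21627 protein-coding genes, 67.5% held at least 1 Mta2 summit and 23.5% at least 5. Genes under 10 kb had 1.39 summits per 10 kb when pooled, and 61.7% of them had none. Genes of at least 500 kb had 0.310 per 10 kb, and 1.33% of them had none. For some of the genes below, the count of summits is therefore given with its rank among genes of like length. The other counts are not adjusted for length.

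The 10 genes with most summits were all longer than 300 kb. Arhgap26, a GTPase activating protein, led with 164 summits over 774.7 kb, of which 51 fall in overlapping genes, among them Fgf1. Pde4d, a cyclic AMP phosphodiesterase, had 137, Zbtb20, a zinc finger repressor, 124, and Itpr1, a calcium release channel, 114. Arhgap24, a Rac-inactivating protein of podocytes, and Syn3, a synapsin, had 111 each. Of those in Syn3, 29 are shared with Timp3 or Fbxo7, which overlap it. Lrmda had 105, Pard3, a polarity protein, 104, Gse1 103 and Arid1b, a subunit of the BAF remodelling complex, 102. Itpr1 stood first among the 763 genes of 200 to 500 kb, whose median was 15 summits. Arhgap26 stood first among the 226 genes of at least 500 kb, with a median of 18.

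By density, short genes led. Among genes of at least 10 kb, Sema3b, a secreted semaphorin, had 7.78 summits per 10 kb (9 in 11.6 kb). Slc9a3r1, which encodes the scaffold NHERF1 that anchors the phosphate transporter in the proximal tubule brush border, had 7.29 (13 in 17.8 kb). Nit2, Rer1, Fam110a, Lrrc32, Tnfaip2, Afmid, Slc30a2 and Cndp2 followed with 6.03 to 6.56. In Nit2 the Mta2 count of 7 stood beside 3 for Mbd3 and 4 for Zbtb7a, and its median fold was 2.97. Slc9a3r1 had 11 and 10 in these lists.

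**Figure D3:**
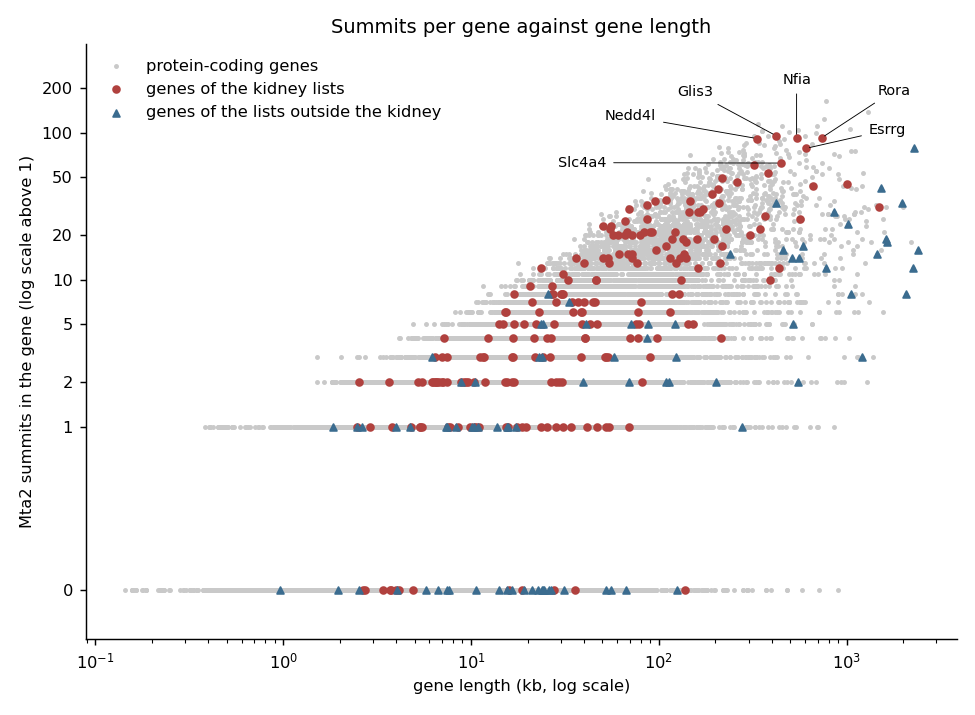
Mta2 summits in each of 21627 protein-coding genes (grey) against gene length in kb, both on log scales, with genes of the kidney lists in red and of the lists outside the kidney as blue triangles. The 6 kidney-list genes with most summits, Glis3 (95) to Slc4a4 (62), are named. Triangles of over 500 kb lie below most red points of that length.

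Transcription factors and their coactivators filled most of the first 20 places among kidney genes. The 11 lists of kidney cell types, kidney regulators and NuRD subunits hold 215 genes, 32 of them nuclear receptors and metabolic regulators, which supplied 13 of the 20. Glis3, a zinc finger factor whose loss causes neonatal diabetes and cystic kidneys, held 95 summits over 421.4 kb (chr19:28258851-28680265), rank 6 of 763 genes of 200 to 500 kb. Nfia, a CCAAT-binding factor, and Rora, an orphan nuclear receptor of circadian and metabolic genes, held 92 each. Nedd4l, the ubiquitin ligase that withdraws the epithelial sodium channel, held 91. Esrrg, an orphan receptor that drives mitochondrial genes, held 78. Slc4a4, the basolateral sodium bicarbonate cotransporter of the proximal tubule, held 62 and was the transporter gene with most. Mbd3 had 96, 71, 73, 92, 76 and 57 summits in these 6 genes and Zbtb7a 84, 63, 62, 82, 67 and 52.

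Cux1, a homeobox factor, held 60 summits, Thrb, the thyroid hormone receptor beta, 53, Nfib 49, and Stk39, the SPAK kinase that activates the thiazide-sensitive cotransporter, 46. Pard3b, a polarity gene, held 45 over 1004 kb, and Ppargc1a, the coactivator of mitochondrial biogenesis, 43. Meis2, a stromal homeobox gene, held 41, against 25 for Mbd3 and 21 for Zbtb7a, with a median Mta2 fold of 3.35. Tcf7l2, a Wnt effector, had 38, Ppargc1b 35, Foxo3 and the endothelial coreceptor Nrp1 34 each, Glis1 33, Rxra, the shared partner of many nuclear receptors, 32, and Magi2, a scaffold of the podocyte slit diaphragm, 31. Relative to length, Foxo3 (3.58 per 10 kb, rank 7 by summits of 2514 genes of 50 to 100 kb) and Rxra (3.68, rank 12) were the densest of these 20. Magi2, at 0.209 per 10 kb, was the sparsest. When only peaks of fold at least 5 were counted, 16 of the 20 genes stayed among the first 20 of the lists.

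Within these genes the summits were spread in different ways. In Cux1, 50 of 60 lay nearer the 5′ end, and in Stk39 37 of 46. In Esrrg, 58 of 78 did, 21 of them in the first 10% of the gene. In Ppargc1a only 5 of 43 did, with none in the first 10%. The strongest Ppargc1a peak, of fold 28.5, lay 587.8 kb from the 5′ end and 39.7 kb from the single start that the table lists for it. In Nfia 38 of 92 were nearer the 5′ end and 1 in the first 10%. Rora had 34 of 92 nearer the 5′ end. Only summits inside the gene span were searched for the strongest peak, so peaks just upstream of the span were left out. That strongest peak lay within 1 kb of a listed start in 4 of the 17 genes with one. Those of Glis3 (fold 44.4) and Rora (46.4) lay 179 and 457 kb from a listed start. In Slc4a4 the strongest, of fold 53.4, lay 0.177 kb from an internal start 233.9 kb into the gene, and in Rxra (59.3) 0.121 kb from a start.

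**Figure D4:**
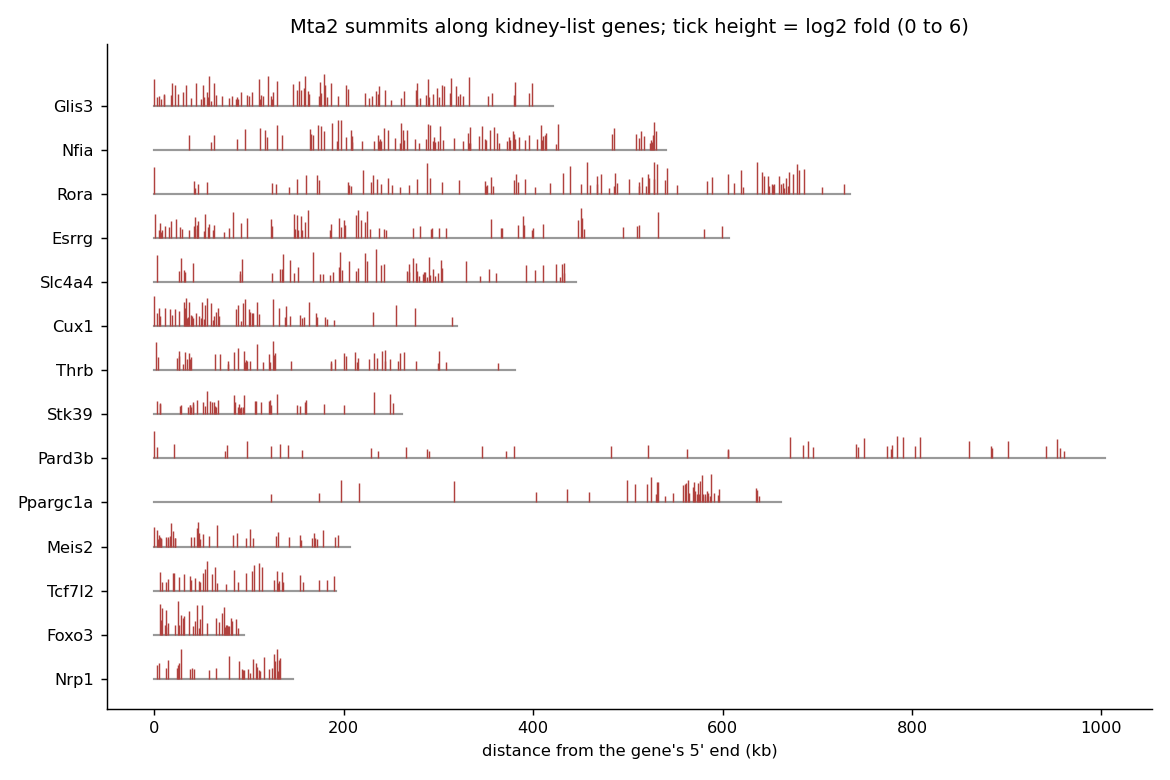
Mta2 summits along the 14 kidney-list genes with most summits among those with a listed strand, by distance in kb from the 5′ end. Each tick is a summit and its height is the log2 of the authors' fold, from 0 to 6. Ticks cluster toward the 3′ end in Ppargc1a and toward the 5′ end in Cux1.

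As a group, kidney-list genes held more summits than protein-coding genes at large. These lists include the 15 NuRD subunit genes and were chosen with earlier results of these data known. How far that choice sets the shares was not tested. Of the 215, 202 (94.0%) held at least 1 summit, beside 67.5% of all genes, and 117 (54.4%) at least 5, beside 23.5%. Among those of at least 10 kb, 112 of 175 (64.0%) had at least 1 summit per 10 kb, beside 40.6%. Their median was 5 summits, against 1 over all genes, and 160 (74.4%) exceeded the median of their length class, as did 44.5% of all genes. Of 84 genes of neurons, muscle, hepatocytes and immune cells, 59 (70.2%) held at least 1 and 28 (33.3%) at least 5. Of their 66 genes of at least 10 kb, 8 (12.1%) passed 1 per 10 kb. Members of the lists differ in length from genes at large, with medians of 38.7 kb for the kidney lists and 17.3 kb for all genes.

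Regulators held the most summits per gene, and proximal tubule genes the highest median density. Of 32 nuclear receptors and regulators of metabolism, 32 held a summit and 27 at least 5, beside 67.5% and 23.5% of all genes. Of those of at least 10 kb, 24 of 28 passed 1 per 10 kb, beside 40.6% of all genes of that length. Their median was 1.93 per 10 kb, and the list had a median length of 101.9 kb. Of proximal tubule genes 18 of 23 passed 1 per 10 kb, with a median of 2.52, and 15 of 30 held at least 5. After Slc4a4 the most were in Lrp2, megalin, with 29, and Slc7a7, a basolateral amino acid exchanger, with 23 in 50.6 kb. Endothelial genes passed in 11 of 14, and the most summits were in Nrp1, Flt1, a VEGF receptor (29), and Erg, an ETS factor (22). Genes of nephron progenitors passed in 12 of 15, with 22 summits in Pax8 and 21 in Pax2, although the mice were adult. The progenitor gene Hoxa11 held no Mta2 summit in its 3.71 kb, and 6 with 5 kb added at both ends.

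By summits per 10 kb alone, podocyte genes were lower than other cortical lists. Of 28 podocyte genes, 24 held a summit and 17 at least 5, beside 67.5% and 23.5% of all genes. Of those of at least 10 kb, 9 of 23 passed 1 per 10 kb, near the 40.6% of all genes, with a median of 0.658. The list holds long genes, with a median length of 74.7 kb. Against the median of their length class, 15 of the 28 stood above, beside 44.5% of all genes. Pard3b, Magi2 and Actn4, the actin crosslinker mutated in familial focal segmental glomerulosclerosis (30 summits, 4.34 per 10 kb), held the most. Foxc1 and Foxc2, of 3.99 and 2.73 kb, had none inside, but 5 and 3 when 5 kb were added at both ends, and 1 each by interval midpoints. Podocytes are a small share of cortical cells, and fewer cells of a type and less binding per cell cannot be told apart in such tissue. Distal convoluted and connecting tubule genes passed in 7 of 15. After Stk39 the most summits were in Sgms2, a sphingomyelin synthase (30), and Slc8a1, the sodium calcium exchanger (27).

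In the thick ascending limb list 6 of 12 passed 1 per 10 kb, beside 40.6% of all genes of at least 10 kb. The most summits were in Cldn10, a paracellular sodium pore (26), Enox1 (26) and Casr, the calcium-sensing receptor (15). In principal cell genes 6 of 10 passed. Nr3c2, the mineralocorticoid receptor, held 22 and Tfcp2l1 20 after Nedd4l, while Avpr2, the vasopressin receptor gene, and Fxyd4 held none (1 and 2 with 5 kb added at both ends). In intercalated cell genes 6 of 13 passed, and the most summits were in Atp6v0a4 and Car12, a carbonic anhydrase (13 each), and Atp6v0d2 (7). Mesangial and stromal genes passed in 6 of 12, and after Meis2 the most summits were in Itga8 (19) and Meis1 (18). Col1a2, a fibrillar collagen gene, had none in 35.9 kb and 3 with 5 kb added at both ends.

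Genes of other tissues were sparse by density. Of 22 neuronal genes of at least 10 kb, 0 passed 1 summit per 10 kb, beside 40.6% of all genes of that length. Of the 24, 17 held at least 5 summits, and their median length was 679.1 kb. Genes of at least 500 kb as a class had a median of 0.216 per 10 kb, below this cut. Against the median of their length class, 9 of the 24 stood above. Of the 84 genes of other tissues 26 (31.0%) did, beside 44.5% of all genes. Ptprd (78 summits), Rbfox1 (42) and Dlg2 (33) span 1528 to 2271 kb. By summits they ranked 13, 43 and 56 of the 226 genes of at least 500 kb, whose median was 18. Muscle genes passed in 2 of 17, Ckm and Mybpc2 (named after their values were seen), and the most summits were in Sgcd (24), Dmd, dystrophin (16), and Ryr2 (14). Hepatocyte genes passed in 3 of 14, C3 and Plg with 5 summits each and Serpinc1 with 3. Immune genes passed in 3 of 13: Csf1r, the macrophage growth factor receptor (8), Spi1 (7) and Cd4 (5). Stmn2, Cacna1s, Myh1, Apoh, F2 and Adgre1 held none, and with 5 kb added at both ends Cacna1s and Apoh had 1 each.

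**Figure D5:**
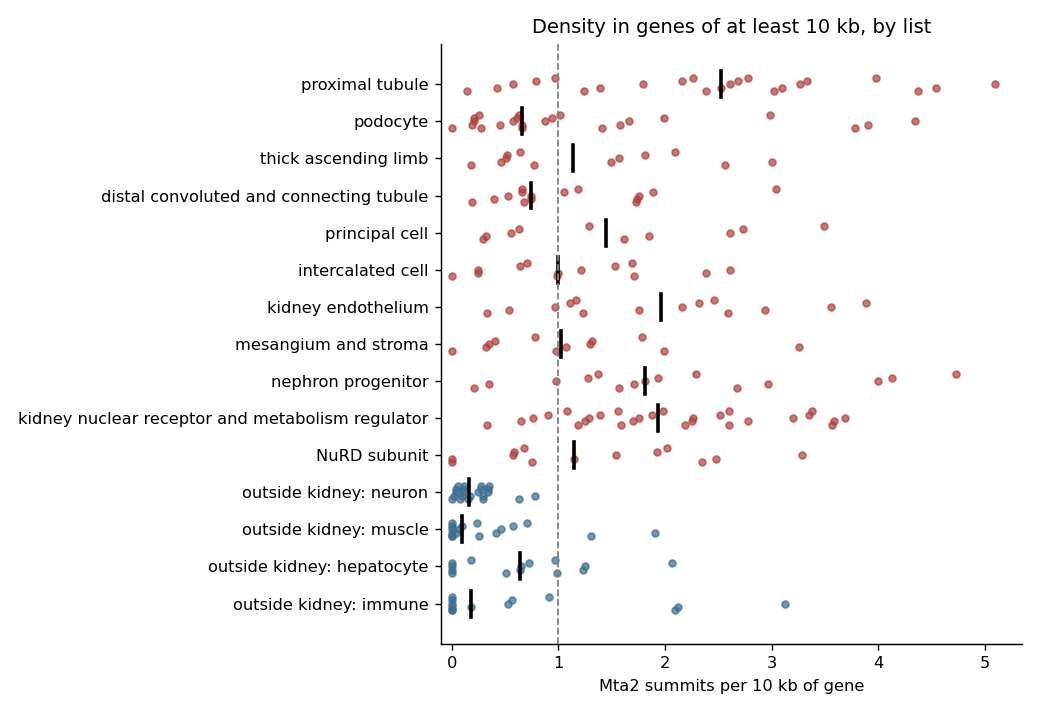
Mta2 summits per 10 kb in each gene of at least 10 kb (points), by list, with the list's median (black bar) and the value of 1 per 10 kb (dashed). Kidney and NuRD lists are red, lists outside the kidney blue. The median is 2.52 for the proximal tubule, 0.658 for podocytes and 0.161 for neurons.

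Most genes of the NuRD complex itself carried Mta2 summits. Of 15 subunit genes, 13 (86.7%) held at least 1 and 6 (40%) at least 5, beside 67.5% and 23.5% of all genes. Of those of at least 10 kb, 7 of 13 (53.8%) passed 1 per 10 kb, beside 40.6%. Pooled, the list had 1.43 summits per 10 kb and all genes 0.848. Gatad2a (21) and Mbd2 (20) led, at 2.35 and 3.28 per 10 kb. The MTA genes Mta3, Mta1 and Mta2 had 8, 6 and 2. The helicase genes Chd4, Chd3 and Chd5 had 7, 3 and 3, and the histone chaperone gene Rbbp4 had 7. Gatad2b had 4, Mbd3 3, and Hdac1 and Cdk2ap1 2 each. Hdac2 and Rbbp7 had no summit inside the gene, 1 each by interval midpoints, and 2 and 1 with 5 kb added at both ends. Both Mta2 summits in the Mta2 gene (chr19:8941920-8952300) were nearer its 5′ end, and the stronger had a fold of 10.97 at 3.02 kb from its start.

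Median fold varied little with cluster size, and peak strength varied more with the distance to the nearest summit. Summits standing alone had a median fold of 4.59, and those in clusters of 10 to 19, of 20 to 49 and of 50 or more had 5.58, 5.58 and 5.497. The strongest peak of a cluster rose with its size, from a median fold of 8.55 in clusters of 2 or 3 to 41.5 in those of 50 or more; this is a maximum over more peaks. By distance to the nearest other summit the fold was highest in the middle. It was 4.17 under 1 kb, 5.81 at 1 to 2 kb, 5.94 at 2 to 5 kb and 4.25 beyond 100 kb. In these classes 40.1%, 56.9%, 57.7% and 37.8% of peaks had a fold of at least 5. The median −log10 q was 13.7, 26.6, 26.7 and 13.6. Folds of neighbouring peaks were nearly unrelated, with Spearman's rank correlation between -0.12 and 0.05 over the 7 classes of gap length.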

How the data were processed

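Mta2, Mbd3, Zbtb7a and Input were mapped in 2 libraries each. The submitters' processing notes name the mm10 build, the aligner Bowtie2, the peak caller MACS2, bedtools and deepTools; their versions and settings, and how libraries were merged, are not given in those sources. Each of the 3 deposited lists gives per peak an interval, a display score, the authors' fold ratio over background, −log10 p and q, and the summit offset. The score and −log10 p were not used. No value belongs to 1 library, so no test over samples was possible. The labels state 100 M reads per library; the reads obtained were not analysed here. Replicates were labelled biological.

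The summit was the interval's start plus the offset. Intervals on chromosomes 1 to 19 and X were kept. Gene spans, starts and sequences came from RefSeq GRCm38.p6, matched by symbol (299 of 299 listed genes). Clusters joined summits at up to 0.5 × 25 kb. Genes were called at 1 or 5 summits in the span, or, from 10 kb of length, at 1 summit per 10 kb. Scripts used Python 3.11.15, pandas 2.3.3, NumPy 2.4.6 and SciPy 1.17.1 and were tested on simulated data.

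Members and gene lists were chosen with earlier results of these data known. The rule named the 20 kidney-list genes with most summits, 3 members per list with most and up to 2 with none, the 10 genes with most summits and the 10 densest, the 5 largest clusters and 5 longest gaps, and every NuRD gene. The windows of 100 kb and the share of CG were added after the data were seen. Alternatives were peaks of fold at least 5 or of −log10 q at least 10, interval midpoints, merging summits within 500 bp, other joining distances and bin sizes, spans widened by 5 kb, and non-coding genes. Some genes that the rule named, and 1 of the fixed motifs, are not reported here.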

Additional observations from a re-analysis of the deposited data

Results flagged for a closer look

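Data outside the regions described above also held signal. The Mta2 list has 143 peaks on chromosome Y, with a median fold of 3.23 and a highest fold of 17.7, and the Mbd3 and Zbtb7a lists have 156 and 80 there. They are given as values only, since Y was not part of the landscape described and no control list exists for it.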

How the results depend on the processing

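No paired analysis was possible because the lists carry no value per library; for the same reason no library could be left out. With peaks of −log10 q of at least 10, gaps under 5 kb were 42.3%, clustered summits 83.6%, the largest cluster 84 summits and the share inside genes 57.2%. With a fold of at least 5 these were 35.3%, 78.9%, 53 and 57.0%, the median gap was 8540 bp, and 2690 genes held at least 5 summits. Joining at 5 kb or 25 kb put 72.2% or 94.98% of summits in clusters, and the largest at 25 kb held 267. The share inside genes was 59.8% with interval midpoints and 66.3% with non-coding genes. Bins of 250 kb gave a ratio of gene-rich to empty bins of 4.86, and bins of 5 Mb gave no value. Kidney-list genes with at least 5 summits ranged from 78 to 166. Of 103 named genes, 57 stayed within 1.5 times their count at −log10 q of at least 10, 28 at a fold of at least 5, 85 with 5 kb added, 97 with midpoints and 103 after merging. The stricter lists hold fewer peaks; the cause of the other changes was not tested. Peaks below the authors' threshold are missing from every count.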
